A study of Mus musculus with 6 samples.

Results

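The ephrin, semaphorin and plexin guidance genes of 2 mouse ovarian surface epithelial cell lines are described here. The members were taken by symbol from the deposited array table and are the Eph receptors, the ephrins, the semaphorins of classes 3 to 7, the plexins, the neuropilins, the Slit and Robo genes, and the netrin and Unc5 genes. They are 68 of the 20405 genes on the array with a symbol, and where several probe sets carry a symbol, the gene is read from the brightest of them, averaged over 6 arrays. The M0505 line was derived from the surface epithelium of FVB/N mouse ovaries, and its early passage cells gave 3 arrays. The STOSE line arose from M0505 when these cells were passaged for a long time and transformed without any introduced gene, and it also gave 3 arrays. Both lines were grown in the same medium with fetal calf serum and EGF, and the labels name no transgene or drug in either. Each is a single cell line, so transformation, time in culture and the line's own history cannot be told apart. The labels call the arrays of a line biological replicates without naming separate cultures or animals, so the p-values measure only the spread between these samples, which may be technical. Values are log2 units of the robust multi-array average (RMA), so a difference of 1 is a 2-fold difference in signal. Differences and their standard errors (SE) are STOSE minus M0505 on this scale, from a limma fit over all genes.

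Guidance molecules were first studied in growing axons and also act in epithelia and blood vessels. Eph receptors are tyrosine kinases that bind ephrins on the neighbouring cell, the ephrin-A proteins held by a lipid anchor and the ephrin-B proteins spanning the membrane, and signals pass into both cells. Semaphorins bind plexins, which act on small GTPases inside the cell, and most of the secreted class 3 semaphorins need a neuropilin as co-receptor. Slits are secreted ligands of Robo receptors, and netrins are laminin-like secreted proteins that bind DCC, neogenin and the Unc5 receptors.

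Of the 68 guidance genes, 10 rose and 9 fell in STOSE cells at an adjusted p under 0.05 (limma, Benjamini-Hochberg over all genes) and a change of at least 2-fold, a pair of thresholds named a call below. Over all genes 4.90% were called higher and 7.59% were called lower, 12.5% in all, against 14.7%, 13.2% and 27.9% of the guidance genes. The counts by family below rest on few genes each and stand against these shares of all genes. The guidance genes called higher were *Sema3d*, *Epha4*, *Sema3a*, *Plxnb3*, *Sema4a*, *Sema3f*, *Robo2*, *Epha7*, *Nrp2* and *Ephb3*. Those called lower were *Slit2*, *Sema4g*, *Plxnb1*, *Ephb1*, *Efna2*, *Ntn4*, *Ephb6*, *Unc5b* and *Ntn3*. The other 49 were not called, and 29 of them passed the adjusted p with a smaller change. In all 48 of the 68 passed the adjusted p (70.6%), against 56.5% of all genes, with 26 higher and 22 lower, against 31.6% and 24.8% of all genes. The median log2 fold change was 0.09 for the guidance genes and 0.08 for all genes, and the median size of the change regardless of sign was 0.48 and 0.25. In 50 of the 68 (73.5%) the arrays of the lines did not overlap, against 64.6% of all genes. At least 1 line had a mean above the background level in 62 of the 68. Here the background level is 4.74, the 95th percentile of the probe sets of olfactory receptor genes. Genes above it in at least 1 line were 91.2% of the guidance genes and 72.3% of all genes, and the part of this in the counts above was not tested. Among genes above background in a line, 30.6% of guidance genes and 17.1% of all genes were called, and the arrays did not overlap in 80.6% and 77.9%. These shares are a description, since a gene can pass this filter through the line in which it is high.

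**Figure D1:**
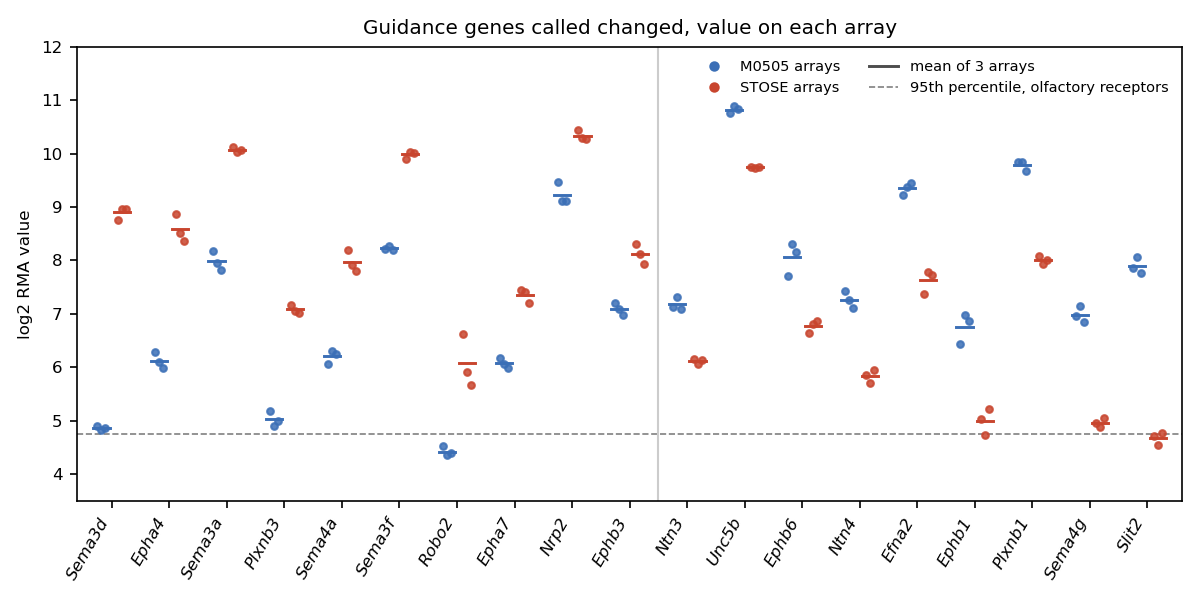
The log2 RMA value of each array (y axis) for the 19 guidance genes called changed, ordered by fold change along the x axis, with M0505 arrays in blue, STOSE arrays in red and the mean of 3 arrays as a short bar. The 10 genes left of the grey line rose and the 9 genes right of it fell, no array of a line overlaps the other line in any of them, and the M0505 arrays of *Robo2* lie under the dashed background level of 4.74.

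Each array was on the same scale only as far as the authors' normalization made it so. When each array was centred on the median of its genes instead, the median log2 fold change of all genes moved from 0.08 to 0.28, and every log2 fold change below would be higher by 0.20. The guidance genes then split into 15 higher and 7 lower (68.2% higher) in place of 10 and 9 (52.6%), and all genes into 1466 higher and 1177 lower (55.5%) in place of 1000 and 1548 (39.2%). All 8 listed markers of the ovarian surface epithelium lay above background in both lines. At the adjusted p alone 7 of them were lower and 0 higher, against 24.8% and 31.6% of all genes. Of these *Krt7*, *Krt8* and *Krt19* were called lower, and *Krt19* went from 11.17 ± 0.02 (SD, n = 3) to 5.61 ± 0.27, near background. Of the 27 measured markers of endothelium, leukocytes, granulosa cells, stroma and neural cells, 0 were called higher and 4 were called lower. The 4 were *Kdr*, *Cd68*, *Inha* and *Snap25*. Above background in both lines were 15 of the 27, 2 were so in 1 line (*Kdr* in M0505 and *Amh* in STOSE cells), and 10 were under it in both. The 15 included *Cdh5*, *Tek* and *Tie1* of endothelium, *Cd68* and *Cd3e* of leukocytes, *Foxl2* and *Inha* of granulosa cells, *Pdgfra*, *Dcn*, *Col1a1* and *Col3a1* of stroma, and *Snap25* and *Sox10* of neural cells. Of these, *Tek* (4.76 in M0505 and 4.78 in STOSE cells), *Cdh5* (4.81 and 5.01), *Cd3e* (5.09 and 5.31) and *Tie1* (5.13 and 5.36) lay near background in both lines. The 10 included *Pecam1*, *Emcn*, *Ptprc*, *Lyz2*, *Csf1r*, *Fshr*, *Cyp19a1*, *Lum* and *Tubb3*. The summed linear signal of the 6 endothelial markers ran from 860 to 940 on the M0505 arrays and from 147 to 154 on the STOSE arrays. It ran from 819 to 1079 and from 226 to 263 for leukocytes, from 886 to 1005 and from 188 to 217 for granulosa cells, from 5194 to 5627 and from 4779 to 5169 for stroma, and from 187 to 214 and from 170 to 187 for neural cells. The endothelial, leukocyte and granulosa sums rest mainly on 1 gene each. *Kdr* went from 9.58 to 4.41, *Cd68* from 9.78 to 6.96 and *Inha* from 9.61 to 5.68. The other endothelial markers differed by -0.36 to 0.22, the other leukocyte markers by 0.02 to 0.56 and the other granulosa markers by -0.37 to 0.27. The part of such cells or genes in the results below was not tested.

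Promoter sequence was looked at because the study also looked at Wnt signaling, whose TCF/LEF factors bind a short core. RefSeq promoters of GRCm38.p6 were found for 59 of the 68 genes (75 promoters), and the 250 bases before each start were searched on both strands for CTTTGA or CTTTGT. The promoters of *Sema3d* and *Sema3a*, 2 neighbouring genes with the largest rises among the semaphorins, and of *Nrp2* and *Plxnb3* are shown because they are the 4 genes called higher with a match. That of *Slit2*, the gene with the largest fall, is shown beside them and has none. Capitals mark the matches, and each line runs 5′ to 3′ on the strand of the gene, which is the plus strand for all 5.
Sema3d: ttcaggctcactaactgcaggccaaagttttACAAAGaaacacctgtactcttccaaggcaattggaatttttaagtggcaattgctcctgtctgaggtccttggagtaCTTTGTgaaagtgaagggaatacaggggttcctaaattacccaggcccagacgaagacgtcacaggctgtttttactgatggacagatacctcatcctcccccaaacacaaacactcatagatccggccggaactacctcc
Sema3a: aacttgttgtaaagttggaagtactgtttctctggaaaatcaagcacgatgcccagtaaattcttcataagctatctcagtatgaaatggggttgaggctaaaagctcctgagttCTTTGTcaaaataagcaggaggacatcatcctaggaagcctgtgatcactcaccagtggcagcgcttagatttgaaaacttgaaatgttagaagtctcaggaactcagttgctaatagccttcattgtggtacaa
Nrp2: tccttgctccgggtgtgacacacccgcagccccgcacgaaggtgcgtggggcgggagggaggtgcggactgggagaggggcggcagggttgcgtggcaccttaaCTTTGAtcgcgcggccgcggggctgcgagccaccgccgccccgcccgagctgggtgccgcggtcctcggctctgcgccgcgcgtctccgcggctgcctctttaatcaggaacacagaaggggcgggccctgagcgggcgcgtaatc
Plxnb3: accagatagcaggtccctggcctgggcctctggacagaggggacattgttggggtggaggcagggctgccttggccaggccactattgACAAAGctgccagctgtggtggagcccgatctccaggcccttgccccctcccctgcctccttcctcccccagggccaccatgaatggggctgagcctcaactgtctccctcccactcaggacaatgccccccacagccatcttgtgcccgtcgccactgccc
Slit2: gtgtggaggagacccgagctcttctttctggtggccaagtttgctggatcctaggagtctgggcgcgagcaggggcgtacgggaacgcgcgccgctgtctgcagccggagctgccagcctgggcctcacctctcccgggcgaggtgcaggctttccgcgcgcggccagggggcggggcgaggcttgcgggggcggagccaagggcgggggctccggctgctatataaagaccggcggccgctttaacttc
These windows are chr5:12382916-12383165, chr5:13396534-13396783, chr1:62703067-62703316, chrX:73756853-73757102 and chr5:47982905-47983154. Each of these 5 genes had a single start among the promoters searched. A core was present in 4 of 15 promoters of 9 genes called higher (26.7%), in 1 of 9 promoters of genes called lower (11.1%, that of *Efna2*), in 6 of 51 of guidance genes not called (11.8%), in 14.7% of all 75 promoters of guidance genes and in 27.6% of all 32851 promoters. The *Slit2* window holds a TATA box, TATAAA, as 12.4% of all promoters do. The genes called lower had 10 to 30 CG dinucleotides in the window with a median of 25, and those called higher 2 to 32 with a median of 8. The median was 16 for guidance genes not called, 15 for all guidance genes and 6 for all promoters. A gene with several starts was counted once for each start, and a match in these letters is not a bound site.

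The secreted class 3 semaphorins held the largest rise of all guidance genes. Of the 7, *Sema3d*, *Sema3a* and *Sema3f* rose and none fell, and the median log2 fold change of the 7 was 0.94. *Sema3d* read 4.90, 4.82 and 4.85 on the M0505 arrays and 8.76, 8.97 and 8.97 on the STOSE arrays. The M0505 arrays sit just above the background level of 4.74, and the STOSE arrays lie far above it. The rise was 16.5-fold (log2 fold change 4.04, SE 0.07, adjusted p = 5.20e-09). *Sema3a*, the semaphorin known for collapsing growth cones through neuropilin 1, read 8.18, 7.95 and 7.83 in M0505 cells and 10.13, 10.02 and 10.07 in STOSE cells. It was well measured in both lines and rose 4.26-fold (log2 fold change 2.09, SE 0.09, adjusted p = 4.82e-07). *Sema3f*, which acts mainly through neuropilin 2, read 8.22, 8.27 and 8.20 in M0505 cells and 9.91, 10.03 and 10.02 in STOSE cells, a rise of 3.38-fold (log2 fold change 1.76, SE 0.06, adjusted p = 1.22e-07).

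The other class 3 genes differed by less than 2-fold. *Sema3b* read 6.10, 6.29 and 6.25 on the M0505 arrays and 7.11, 7.16 and 7.19 on the STOSE arrays. *Sema3e*, which binds plexin D1 without a neuropilin, read 8.61, 8.60 and 8.62 on the M0505 arrays and 9.43, 9.51 and 9.49 on the STOSE arrays. In both genes every STOSE array lay above every M0505 array. *Sema3b* was higher by 0.94 (95% interval 0.79 to 1.10) and *Sema3e* by 0.86 (0.74 to 0.99), both past the adjusted p. Both were past 2-fold once arrays were centred on their medians, at 1.14 and 1.06. *Sema3c* was lower by a small amount that also passed the adjusted p, at 11.20 ± 0.04 (SD, n = 3) in M0505 cells and 10.87 ± 0.04 in STOSE cells. *Sema3g* was near background in both lines, and its difference was 0.08 with an interval of -0.09 to 0.25.

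Of the neuropilins, the co-receptors of this class, *Nrp2* was called higher and *Nrp1* was not, and the difference between the 2 genes was not tested. *Nrp2* read 9.47, 9.11 and 9.11 on the M0505 arrays and 10.44, 10.29 and 10.28 on the STOSE arrays. The lines did not overlap, and the rise was 2.15-fold (log2 fold change 1.11, SE 0.11, adjusted p = 3.90e-05), with log2 fold changes between 1.04 and 1.23 when each array was left out in turn. *Nrp1* read 9.45, 9.50 and 9.41 against 9.44, 9.53 and 9.54, so the lines overlapped. Its difference was 0.05 with a 95% interval of -0.08 to 0.19, and a 2-fold change lies outside that interval on the authors' scale.

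**Figure D2:**
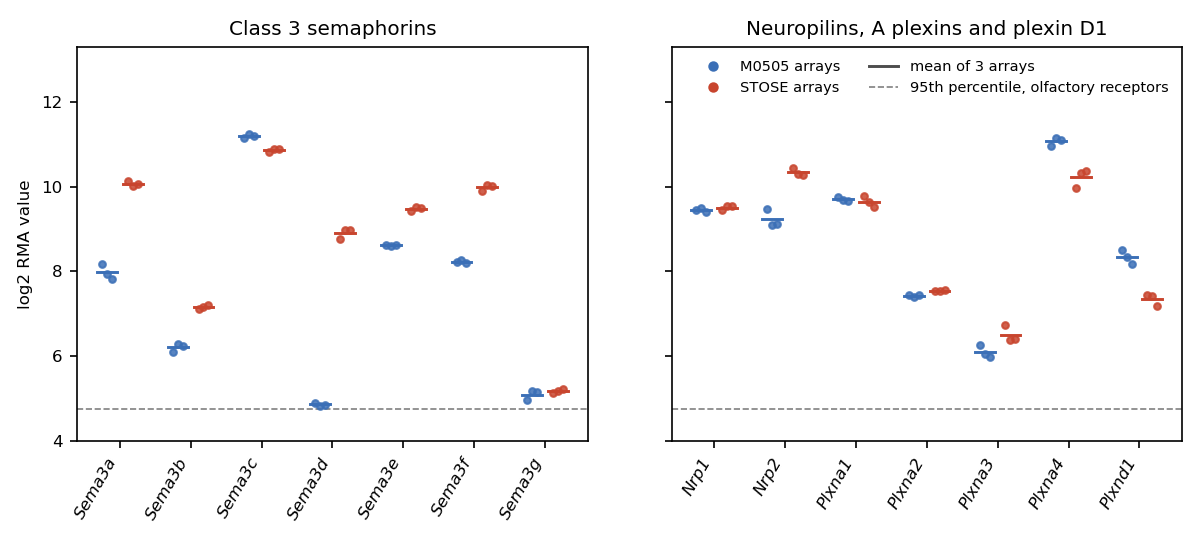
The log2 RMA value of each array (y axis) for the 7 class 3 semaphorins on the left and for neuropilins, A plexins and plexin D1 on the right, with M0505 arrays in blue, STOSE arrays in red and the mean of 3 arrays as a short bar. *Sema3a*, *Sema3d*, *Sema3f* and *Nrp2* are higher by at least 2-fold in STOSE cells, *Nrp1* overlaps between the lines, and *Plxnd1* is lower by 0.996 on the log2 scale.

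Among the plexins, 1 of 9 rose and 1 fell, and both were B plexins. *Plxnb3* read 5.18, 4.90 and 5.00 in M0505 cells and 7.17, 7.06 and 7.02 in STOSE cells. It rose from just above background, 4.16-fold (log2 fold change 2.06, SE 0.08, adjusted p = 2.99e-07). *Plxnb1*, the receptor of semaphorin 4D and a partner of the MET kinase, read 9.84, 9.84 and 9.68 in M0505 cells and 8.09, 7.93 and 8.01 in STOSE cells. That was a fall of 3.42-fold, with a log2 fold change of -1.78 (SE 0.07, adjusted p = 3.08e-07). A second *Plxnb1* probe set did not show the fall, and the mean of both gave -0.77, under 2-fold. *Plxnb2*, the remaining B plexin, was well above background and read 11.07 ± 0.05 (SD, n = 3) and 11.06 ± 0.02, a difference with an interval of -0.13 to 0.12.

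*Plxnd1*, the receptor of semaphorin 3E, read 8.51, 8.33 and 8.17 in M0505 cells and 7.44, 7.41 and 7.17 in STOSE cells, and its log2 fold change of -0.996 stopped just short of 2-fold. It passed the adjusted p and was beyond 2-fold without M0505 replicate 3 (-1.08), without STOSE replicate 1 (-1.05) and without STOSE replicate 2 (-1.03). Leaving out any other array kept it under 2-fold, at -0.91 where it was weakest. Of the A plexins, which signal for the neuropilins, *Plxna4* read 10.97, 11.15 and 11.09 on the M0505 arrays and 9.97, 10.33 and 10.37 on the STOSE arrays. It was lower in STOSE cells (log2 fold change -0.84, SE 0.11) and *Plxna3* was higher by 0.40, both past the adjusted p. *Plxna1* and *Plxna2* did not pass it, with intervals of -0.24 to 0.13 and -0.01 to 0.24. *Plxnc1* lay under background in both lines.

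The membrane-bound semaphorins of classes 4 to 7 held 1 rise and 1 fall among 13 genes (15.4%, against 12.5% of all genes). At the adjusted p alone 3 were higher and 7 were lower, against 31.6% and 24.8% of all genes. *Sema4a*, which is known from immune cells and vessels, read 6.07, 6.31 and 6.25 in M0505 cells and 8.19, 7.92 and 7.80 in STOSE cells. The rise was 3.39-fold (log2 fold change 1.76, SE 0.11, adjusted p = 2.77e-06). *Sema4g* read 6.95, 7.14 and 6.85 in M0505 cells and 4.96, 4.87 and 5.05 in STOSE cells, close to background, and its log2 fold change was -2.02 (SE 0.09, adjusted p = 4.27e-07). *Sema4b* read 9.19, 9.01 and 8.88 on the M0505 arrays and 8.44, 8.32 and 8.20 on the STOSE arrays. *Sema5a* read 8.44, 8.17 and 8.18 on the M0505 arrays and 7.93, 7.72 and 7.44 on the STOSE arrays. Neither overlapped between the lines. *Sema4b*, *Sema5a*, *Sema7a*, *Sema6d*, *Sema6a* and *Sema4c* had log2 fold changes from -0.71 to -0.46, which passed the adjusted p without reaching 2-fold. *Sema6b* read 5.43, 5.42 and 5.67 on the M0505 arrays and 6.42, 6.24 and 6.34 on the STOSE arrays and was higher by 0.82, and *Sema4f* was higher by 0.20. *Sema4d*, the plexin B1 ligand, stayed near background at 4.95 ± 0.14 (SD, n = 3) and 4.96 ± 0.01, and *Sema5b* and *Sema6c* did not pass the adjusted p either.

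**Figure D3:**
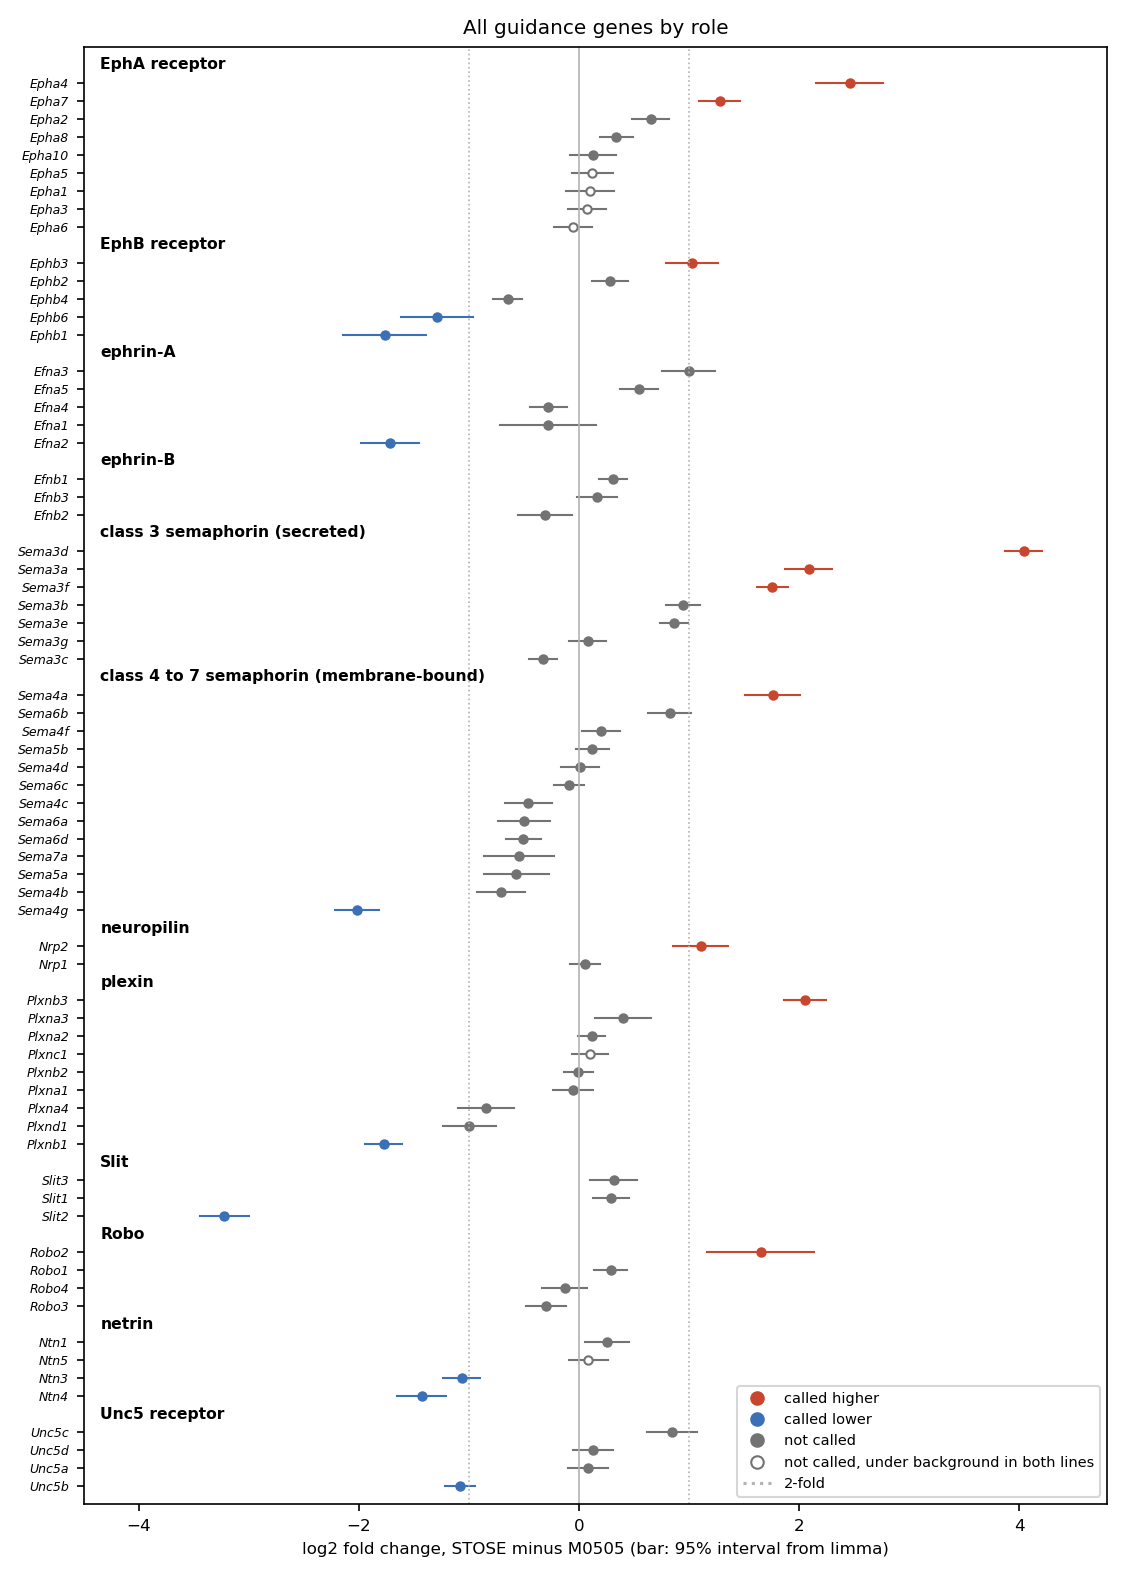
The log2 fold change of STOSE against M0505 cells (x axis) of all 68 guidance genes, grouped by role, with the 95% interval from limma as a bar, called rises in red, called falls in blue, and open symbols where both lines lie under the background level. The dotted lines mark 2-fold, and the rises reach 4.04 for *Sema3d* while the falls reach -3.22 for *Slit2*, a fitted value with the STOSE mean under background.

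On chromosome 5 the class 3 genes *Sema3d*, *Sema3a*, *Sema3e* and *Sema3c* follow each other in the RefSeq order of GRCm38.p6, and their log2 fold changes along it were 4.04, 2.09, 0.86 and -0.32. No measured gene lies between *Sema3d* and *Sema3a*. Between *Sema3d* and *Sema3c* lie 8 measured genes that are not semaphorins, of which 5 were under background in both lines, 0 were called higher and 3 were called lower. The 3 were *Speer4e*, *Speer8-ps1* and *Speer4d*, members of a family of near-identical copies whose probes may share signal. *Sema3f* and *Sema3b* likewise lie close together on chromosome 9 with 3 measured genes between them, 0 of which were called. The median log2 fold change was 0.00 over the 1146 genes of chromosome 5 and 0.05 over the 1162 of chromosome 9, and over all chromosomes it ran from -0.05 to 0.18. A call needs a change of at least 2-fold, so the 19 called guidance genes lie beyond these chromosome medians by definition. The paper lists a loss of chromosome 5 for every STOSE cell karyotyped and does not list it for M0505 cells. The part of chromosome number in these changes was not tested.

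**Figure D4:**
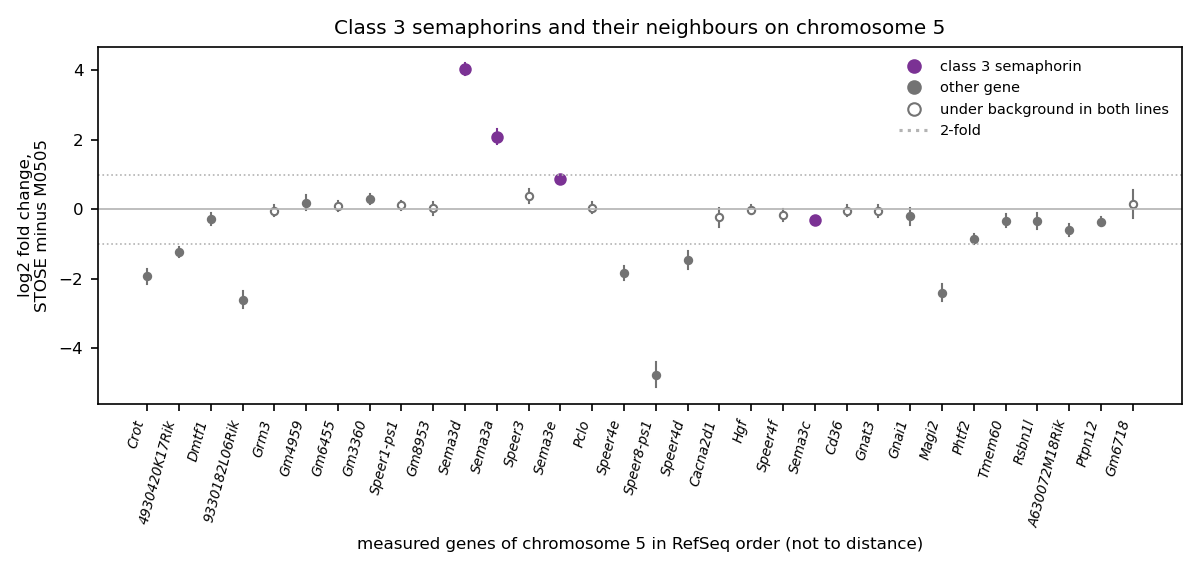
The log2 fold change of STOSE against M0505 cells (y axis, with the 95% interval) of the measured genes around the class 3 semaphorins of chromosome 5, in RefSeq gene order on the x axis and not to distance. The 4 semaphorins in purple run from 4.04 for *Sema3d* to -0.32 for *Sema3c*, and most genes between them are open symbols, under background in both lines.

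The Eph receptors moved in both directions. Of the 9 EphA receptors, *Epha4* and *Epha7* rose and none fell. *Epha4*, which binds ephrins of both classes, read 6.28, 6.09 and 5.99 in M0505 cells and 8.87, 8.51 and 8.37 in STOSE cells. The lines lay more than 2 log2 units apart, and the rise was 5.51-fold (log2 fold change 2.46, SE 0.13, adjusted p = 1.30e-06). *Epha7* read 6.17, 6.06 and 5.99 in M0505 cells and 7.44, 7.41 and 7.21 in STOSE cells, a rise of 2.43-fold (log2 fold change 1.28, SE 0.08, adjusted p = 3.41e-06). *Epha2*, a receptor common in epithelia, read 9.85, 9.67 and 9.63 on the M0505 arrays and 10.41, 10.36 and 10.34 on the STOSE arrays and was higher by 0.65, under 2-fold (adjusted p = 8.46e-05). *Epha8* was higher by 0.34 from a level near background. *Epha1*, *Epha3*, *Epha5* and *Epha6* lay under background in both lines, and *Epha10*, which lacks an active kinase, differed by 0.13 with an interval of -0.08 to 0.33.

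Of the 5 EphB receptors, *Ephb3* rose while *Ephb1* and *Ephb6* fell. *Ephb3*, a Wnt target in the intestine, read 7.19, 7.09 and 6.98 in M0505 cells and 8.31, 8.12 and 7.93 in STOSE cells. The lines did not overlap, but the rise of 2.04-fold (log2 fold change 1.03, SE 0.10, adjusted p = 4.64e-05) lay at the threshold and dropped under it without M0505 replicate 3 (0.98) and without STOSE replicate 1 (0.94). *Ephb1* read 6.43, 6.98 and 6.87 in M0505 cells and 5.02, 4.73 and 5.22 in STOSE cells, with a log2 fold change of -1.77 (SE 0.16, adjusted p = 2.89e-05). A second *Ephb1* probe set, under background in both lines, did not show the fall. *Ephb6*, whose kinase domain is inactive, read 7.72, 8.30 and 8.16 in M0505 cells and 6.63, 6.80 and 6.87 in STOSE cells, with a log2 fold change of -1.29 (SE 0.14, adjusted p = 9.03e-05). M0505 replicate 1 was the lowest of its line for both genes and still lay above every STOSE array. *Ephb4*, the receptor of ephrin-B2 in vessels, read 8.84, 8.80 and 8.74 on the M0505 arrays and 8.16, 8.14 and 8.14 on the STOSE arrays. It was lower without overlap (log2 fold change -0.65, interval -0.78 to -0.52), and *Ephb2* was higher by 0.28, both past the adjusted p.

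Among the 8 ephrins, the ligands of these receptors, only *Efna2* was called. It read 9.22, 9.38 and 9.44 in M0505 cells and 7.38, 7.79 and 7.74 in STOSE cells, a log2 fold change of -1.72 (SE 0.11, adjusted p = 4.37e-06). *Efna3* stood just under 2-fold at 0.997, from M0505 arrays of 4.93, 4.92 and 5.22 to STOSE arrays of 6.16, 6.01 and 5.89. Leaving out M0505 replicate 3 (1.10) or STOSE replicate 3 (1.06) took it past 2-fold, as did median centring (1.197) and a further round of quantile normalization (1.06). Leaving out any other array kept it under 2-fold, down to 0.93 without STOSE replicate 1. The mean of its probe sets gave 0.54. *Efna5* was higher by 0.55 from a mean of 9.90. *Efna1* varied widely in M0505 cells, with arrays at 5.32, 6.05 and 6.10, and did not pass the adjusted p. *Efna1*, *Efna3* and *Efna4* are neighbours on chromosome 3, and their log2 fold changes were -0.28, 0.997 and -0.28. The ephrin-B genes *Efnb1* and *Efnb2* differed by 0.31 and -0.31, the first with arrays that did not overlap and the second with arrays that did, and *Efnb3* did not pass the adjusted p.

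In the Slit and Robo group a ligand fell and a receptor rose. *Slit2* read 7.86, 8.07 and 7.77 on the M0505 arrays and 4.72, 4.54 and 4.77 on the STOSE arrays, around the background level of 4.74. The STOSE mean was under background, with 1 of 3 arrays above it, so only a bound can be given. With each STOSE array at the higher of its value and the background level, *Slit2* was at least 8.87-fold lower, still the largest fall among the guidance genes. The fitted log2 fold change was -3.22 (SE 0.10, adjusted p = 5.57e-08). *Slit3* was well above background in both lines, at 10.29 ± 0.10 (SD, n = 3) and 10.61 ± 0.16, and *Slit1* was near background, and both were higher in STOSE cells, by 0.31 and 0.29. *Robo2*, a main receptor of the Slits, read 4.52, 4.35 and 4.40 in M0505 cells, under background, and 6.63, 5.91 and 5.67 in STOSE cells. Its STOSE arrays varied more than those of any other called guidance gene (SD 0.50). With the M0505 arrays set to the background level, *Robo2* was at least 2.51-fold higher. The fitted log2 fold change was 1.65 (SE 0.21, adjusted p = 0.000219) and lay between 1.37 and 1.85 when any single array was dropped. *Robo1* was higher by 0.29 and *Robo3* differed by -0.30, both at levels near background, and *Robo4*, known from endothelium, differed by -0.13 with an interval of -0.34 to 0.08.

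Netrins and their Unc5 receptors held 3 falls (37.5%) and no rise among 8 genes, against 7.59% of all genes called lower and 4.90% called higher. *Ntn4*, a netrin that binds laminin in basement membranes, read 7.43, 7.26 and 7.11 in M0505 cells and 5.85, 5.71 and 5.95 in STOSE cells, a log2 fold change of -1.43 (SE 0.10, adjusted p = 4.81e-06). *Ntn3* read 7.14, 7.31 and 7.10 against 6.16, 6.06 and 6.13, a log2 fold change of -1.06 (SE 0.07, adjusted p = 5.05e-06) that lay close to 2-fold. A second *Ntn3* probe set did not show the fall. *Unc5b*, a netrin receptor of vessels and of cells that depend on netrin for survival, read 10.75, 10.89 and 10.84 against 9.76, 9.73 and 9.75. The arrays of each line lay close together, and the log2 fold change was -1.08 (SE 0.06, adjusted p = 1.47e-06). After median centring *Ntn3* and *Unc5b* were no longer past 2-fold, at -0.86 and -0.88. *Unc5c* read 4.45, 4.54 and 4.70 on the M0505 arrays and 5.34, 5.59 and 5.29 on the STOSE arrays. Its fitted log2 fold change was 0.85 from M0505 arrays all under background, which bounds the rise only at 1.59-fold or more, and *Ntn1* was higher by 0.26. *Ntn5*, *Unc5a* and *Unc5d* did not pass the adjusted p.

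A second probe set carried the symbol of 6 guidance genes, and in 4 of them it did not show the change. For *Plxnb1* it read 6.34 and 6.57 (means of 3 arrays) where the probe set used read 9.78 and 8.01. For *Ephb1* it lay under background in both lines, at 4.25 and 4.33. For *Ntn3* it read 6.16 and 6.30, and for *Efna3* 5.42 and 5.50. With the mean of both probe sets the log2 fold changes of *Plxnb1*, *Ephb1* and *Ntn3* were -0.77, -0.84 and -0.46, all under 2-fold. That of *Efna3* was 0.54. The pair of *Sema6b* held identical values, and that of *Unc5d* was not called in either. What the second probe sets read was not tested.

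**Figure D5:**
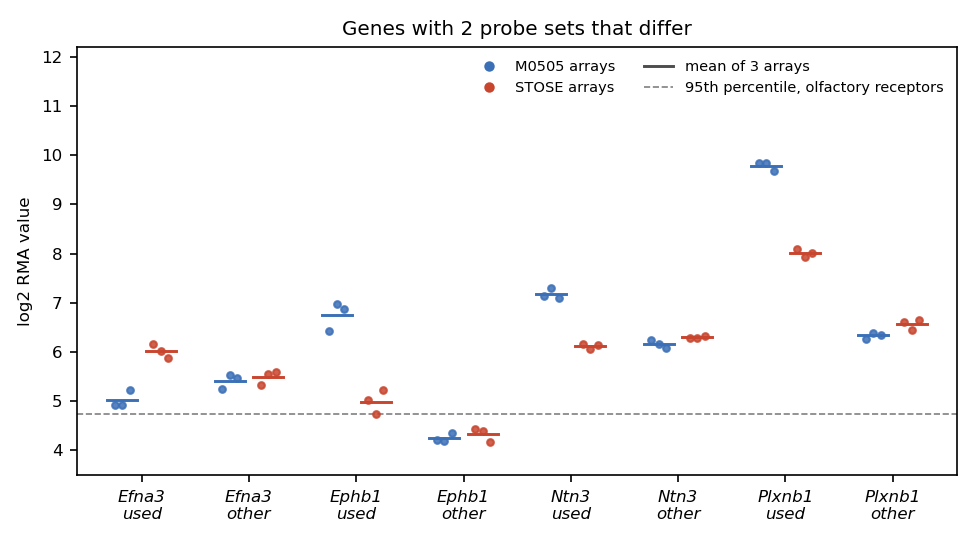
The log2 RMA value of each array (y axis) for both probe sets of *Efna3*, *Ephb1*, *Ntn3* and *Plxnb1*, with M0505 arrays in blue, STOSE arrays in red and the mean of 3 arrays as a short bar. The probe set used separates the lines in all 4 genes, while the other differs between the lines by 0.23 at most, the value of *Plxnb1*.

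Partners and effectors of these receptors were read from a list of 78 genes outside the group, of which 7 rose and 7 fell (17.9%, against 12.5% of all genes). Of the 78, 88.5% were above background in a line and 9 were under it in both lines. The share called was 17.1% for all genes above background in a line, a set that leaves such genes out. Among 20 partners of Eph receptors and ephrins, *Tiam1*, an activator of the small GTPase Rac, rose from 5.61 ± 0.07 (SD, n = 3) to 7.23 ± 0.08 and the kinase gene *Fyn* from 6.82 ± 0.15 to 8.27 ± 0.04. *Chn1*, whose product inactivates Rac downstream of EphA4, fell, with a log2 fold change of -2.41 (SE 0.08, adjusted p = 1.33e-07), and the scaffold gene *Grip1*, whose product binds ephrin-B, had a log2 fold change of -1.06. Among 27 partners of semaphorins and plexins, *Mical1*, an oxidase that takes actin filaments apart below plexins, rose by 1.75 on the log2 scale, *Met*, the hepatocyte growth factor receptor, by 1.57 and *Dpysl5* by 1.11. *Mst1r*, the relative of *Met*, had a log2 fold change of -1.22. *Plxdc1* and *Plxdc2* had log2 fold changes of -3.86 and -1.79, and they share a domain with plexins but are not known as semaphorin receptors.

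None of 14 Slit and Robo partners was called by limma, with 9 past the adjusted p alone, where 12.5% of all genes were called and 56.5% passed the adjusted p. Among 17 netrin partners, the genes of the FLRT proteins, membrane proteins that bind Unc5 receptors, went opposite ways. *Flrt1* fell from 10.09 ± 0.07 (SD, n = 3) to 6.29 ± 0.07 (log2 fold change -3.80, adjusted p = 4.98e-09), while *Flrt2* rose from 9.27 ± 0.14 to 10.38 ± 0.06 and *Flrt3* from 4.30 ± 0.22, under background, to 5.83 ± 0.23, at least 2.13-fold higher. *Dapk1*, a kinase linked to Unc5 receptors in cell death, had a log2 fold change of -1.83. The netrin receptor gene *Dcc* lay under background in both lines, and *Neo1*, which encodes neogenin, differed by -0.98 with arrays at 11.20 ± 0.02 and 10.22 ± 0.02.

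Set side by side, known ligand and receptor pairs showed these values. *Sema3f* and its co-receptor *Nrp2* both rose, at 1.76 and 1.11 on the log2 scale. *Sema3a* rose by 2.09 with *Nrp1* at 0.05. *Sema3e* was at 0.86 with its receptor *Plxnd1* at -0.996. *Slit2* was at -3.22 with *Robo2* at 1.65 and *Robo1* at 0.29, where the fitted values of *Slit2* and *Robo2* rest on a line under background. *Ntn1* was at 0.26 with *Unc5b* at -1.08, and *Efna2* was at -1.72 with *Epha4* at 2.46 and *Epha7* at 1.28. Brighter ligands of the same families differed by less, with *Slit3* at 0.31, *Efna5* at 0.55 and the class 3 gene *Sema3c* at -0.32. *Efnb2* was at -0.31 with *Ephb4* at -0.65, and *Sema4d*, near background, was at 0.01 with *Plxnb1* at -1.78 in the probe set used, a fall its second probe set did not show. These pairs were chosen from what is known of binding and after the values were seen, and binding was not measured here.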

How the data were processed

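RNA of M0505 and STOSE cells was hybridized to 1-colour Affymetrix arrays of the Mouse Gene ST design, 3 per line. The authors deposited log2 values made by RMA in Affymetrix Expression Console per the labels, which covers background correction, quantile normalization and summary per probe set; software version, annotation release and genome build are not given in the sources used here. The deposited table also holds the authors' line means and linear fold changes, which were not used. Of 28944 probe sets, 23530 carried a symbol, standing for 20405 genes, and the highest-mean probe set of each gene was kept. Arrays were assigned by column name, with 0 columns left over. An array has no read depth, and 3 arrays per line limit the precision, since an exact two-sided permutation p cannot go below 0.1. Pearson's r across genes was 0.997 to 0.999 within a line and 0.943 to 0.950 between lines.

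A linear model per gene without covariates was fitted in R 4.3.3 (limma 3.58.1, lmFit followed by eBayes), and p-values were adjusted by Benjamini and Hochberg's method across 20405 genes. The code was tested on simulated data. Background was the 95th percentile of 1134 olfactory receptor probe sets. Where a line's mean was under it, a fold is given as a bound, with that line's arrays at no less than this level. Gene order, names and promoters came from RefSeq tables of GRCm38.p6, which placed 97.5% of genes. Every called member and called partner was named, the 30 members with the largest changes with each array's value, and the rest to account for all members. The background measure and the side-by-side ligand and receptor pairs were chosen after the data were seen. The members and lists were chosen with earlier results of these data known. Alternatives were other normalizations, filters on dim genes, the mean of probe sets, the methods' t-test, an intensity trend, other fold thresholds, a replicate block and leaving out each array. Some marker genes are not reported here by name.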

Additional observations from a re-analysis of the deposited data

How the results depend on the processing

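The fold threshold moved the counts most. At the adjusted p alone, 26 guidance genes were higher and 22 lower, 29 and 24 of the other pathway genes, and 6454 and 5066 of all genes. At 4-fold these counts were 4 and 2 guidance genes, 0 and 3 other pathway genes, and 186 and 509 of all genes. Without the dimmest 50% of genes, *Slit2*, *Sema4g*, *Plxnb3*, *Ephb1* and *Robo2* were not tested and 4 of the other pathway genes were higher. Every other count stayed within 1.5 times its value, those with an array left out included. Of the 19 called guidance genes, 14 were called in each of the 15 refits that tested them and none changed sign in any; *Ephb3*, *Ephb1*, *Plxnb1*, *Ntn3* and *Unc5b* fell short of 2-fold in at least 1, as given above, and *Ntn3* also after a further quantile normalization (-0.89) and without M0505 replicate 2 (-0.999). Of the 49 not called, 6 were called in at least 1 refit, among them *Sema6b* (1.02) and *Unc5c* (1.05) after median centring. The sign changed in 7 that had not passed the adjusted p. After median centring *Epha6* was at 0.15, *Sema6c* at 0.11, *Plxnb2* at 0.20, *Plxna1* at 0.14 and *Robo4* at 0.0705, and after a further quantile normalization *Epha3* was at -0.0014, *Sema4d* at -0.0442, *Sema6c* at 0.0383 and *Plxnb2* at 0.0269. With each array left out in turn, *Epha6* ran from -0.0949 to 0.0032, *Sema4d* from -0.0691 to 0.0561, *Plxnb2* from -0.0241 to 0.0211 and *Plxna1* from -0.13 to 0.0096. The cause was not tested.

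The labels number the replicates 1 to 3 in both lines without saying that a number marks a shared batch. The deviations of same-numbered arrays from their line means had correlations of 0.26, 0.04 and 0.25 across genes, and STOSE replicate 2 correlated best with M0505 replicate 3 (0.12). With the replicate number as a block, 10 guidance genes were higher and 9 lower, 7 and 7 of the other pathway genes, and 1001 and 1548 of all genes. Signal over background limits what could be measured for the 6 members under background in both lines.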
